A study of Mus musculus with 100 samples.

Results

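The uninjured left knee joint of MRL/MpJ (MRL) mice, 1 week after the right knee had been injured, was compared with knee joints of MRL mice that had not been injured. By their labels, 4 of the 100 libraries of the series came from such contralateral joints (1W_MRL_uninjured, called 1W here) and 4 from joints collected before injury (0D_MRL, called 0D). All 17310 genes of the count table were followed. MRL is an inbred strain known for its capacity to heal wounds, and the labels give it as not susceptible to post-traumatic osteoarthritis.

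The mice of both groups were 10 weeks old by their labels. The 1W mice had been anaesthetised with isoflurane, had received 1 compressive load of 10 to 12 N on the right knee, which ruptures the anterior cruciate ligament, and had been given buprenorphine. The 0D joints were collected before injury. Whether the 0D mice had been anaesthetised or given an analgesic, and which of their knees was taken, is not given in the sources used here. The 2 groups were different animals. Injury of the other knee, any difference in anaesthesia or analgesic, altered loading and the additional week therefore cannot be told apart in this comparison. C57BL/6 (BL6) and STR/ort (STR) mice went through the same steps and served for comparison, with 4 libraries per strain at 0D and 5 (BL6) and 4 (STR) at 1W. MRL contralateral joints 1 day after injury (1D, 5 libraries) and MRL injured joints at 1W (5 libraries) were used as well.

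A knee joint holds cartilage, which is built of type II collagen and aggrecan, a synovial lining that secretes lubricin and hyaluronan, tendon and ligament with fibrous collagens, bone with marrow, and remnants of muscle and fat. After an injury, cells of the damaged joint produce cytokines, matrix-degrading enzymes and new fibrous matrix. The contralateral joint is the usual internal control for such changes, although it belongs to an animal that has been injured, shares its circulation with the damaged knee and may bear more weight.

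The 8 libraries held between 6182016 and 10808962 counts, and the 1W libraries between 8726951 and 10492700. Levels are given as CPM, the counts of a gene relative to the total of its library, after scaling by TMM factors, which were 0.926 to 0.943 at 0D and 0.915 to 0.983 at 1W. Markers of joint tissues were present in every library. Col2a1 lay between 1003 and 2426 CPM, Acan (aggrecan) between 141 and 284 CPM and Prg4 (lubricin) between 961 and 1318 CPM. All 8 libraries expressed the Y-linked gene Ddx3y, at 137 to 174 CPM, and had Xist at 2.21 to 5.0 CPM. An injured mouse has 1 contralateral joint. For 0D, whether the joints came from separate mice is not given in the sources used here, and the p-values measure the spread between these libraries, which may be technical.

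No gene was called between 1W contralateral and 0D joints of MRL mice. A gene was called when its fold change exceeded 1.5 and its adjusted p was below 0.05 in the quasi-likelihood test of edgeR. Of 17309 genes tested, 0 were called (0%), and the smallest adjusted p was 0.44. An unadjusted p below 0.05 was found for 953 genes (5.51%), of which 527 were higher (3.04%) and 426 lower (2.46%) at 1W. DESeq2 also called 0 genes, with 833 at an unadjusted p below 0.05.

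The number of calls depended on which libraries entered the fit and on the replicate numbers. The test used 1 estimate of the spread from 40 uninjured joints of the 3 strains. When it was taken from the 8 MRL libraries alone, 2 genes were called (0.0116% of 17268), Cebpb higher and Lep lower. With the replicate number as a block in that fit, 35 genes were called (0.203%), 26 higher and 9 lower at 1W. Libraries of 0D and 1W with the same number deviated together from their group means, although they came from different mice. The 35 genes are described below.

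The intervals of the change came from the fit of the 40 libraries and share its estimate of the spread. Levels here are means over the MRL libraries of 0D and 1W. Of 10025 genes with a mean of 10 CPM or more, 9653 (96.3%) had a 95% interval of the change that lay within 1.5-fold in both directions. The median half-width of these intervals was 0.207 on the log2 scale. Between 1 and 10 CPM, 1707 of 4206 genes (40.6%) had such an interval, and 3601 (85.6%) had one within 2-fold. Below 1 CPM, 0 of 3037 genes had an interval within 1.5-fold and 164 (5.4%) one within 2-fold, with a median half-width of 1.351 on the log2 scale, so that at this depth changes of such sizes were not detectable for most of these genes. Among the genes of at least 10 CPM, the estimated change exceeded 1.5-fold in 11.

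Changes were smaller in MRL than in the other strains over the same genes. The median absolute log2 fold change of the 10025 genes was 0.072 in MRL, 0.128 in BL6 and 0.214 in STR. These genes were chosen by their level in MRL, so some may be weaker and measured less precisely in BL6 and STR. The median SD of log2 CPM between libraries was 0.111 at 0D and 0.117 at 1W in MRL, and 0.107 and 0.141 in BL6 and 0.132 and 0.158 in STR. The same test, in the same fit, called 985 genes in BL6 (5.69%), 181 higher (1.05%) and 804 lower (4.64%) in 1W contralateral joints. The higher genes numbered 99 without replicate 4 of BL6 at 0D and 113 without replicate 2 of BL6 at 1W. In STR it called 2383 genes (13.8%), 1091 higher (6.3%) and 1292 lower (7.46%), a split that became 723 and 1550 with scaling by 25 housekeeping genes and 749 and 239 with the summed level of fast muscle markers as a covariate.

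**Figure D1:**
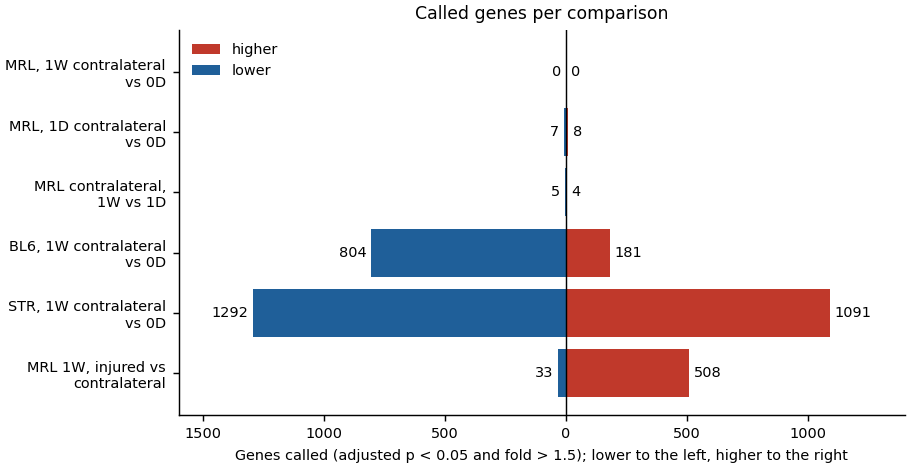
Number of genes called in each comparison, with genes lower in the group named first drawn to the left and genes higher to the right. The bar of MRL 1W contralateral joints against 0D is empty, beside 181 and 804 genes in BL6, 1091 and 1292 in STR, and 508 and 33 between the injured and contralateral joints of the MRL mice.

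Inflammatory mediators that rise in injured joints were low in both groups. Il6, a cytokine of the acute response, lay between 0 and 0.814 CPM at 0D and between 0.113 and 0.350 CPM at 1W. Ccl2, which attracts monocytes, was between 0 and 0.861 CPM at 0D and between 0.226 and 0.706 CPM at 1W. At such levels only changes of several fold would have been visible, with a 95% interval of the log2 fold change of Ccl2 from -1.68 to 2.09. Il1b, a cytokine of myeloid cells, was at 12.2, 17.8, 18.4 and 17.2 CPM at 0D and at 21.5, 27.5, 23.6 and 23.6 CPM at 1W. Every 1W library lay above every 0D library, and the log2 fold change was 0.57 (SE 0.22, edgeR adjusted p = 0.86). With the replicate block the edgeR adjusted p was 2.76e-04, at a change under 1.5-fold. Of 23 measured cytokines and chemokines, 0 were called, with a median log2 fold change of -0.08, against 0.001 over all genes, and 4 of the 23 intervals lay within 1.5-fold. Cxcl1, a chemokine for neutrophils, was listed at 0 in all 4 libraries of 0D and at 0.102 to 0.504 CPM at 1W, too few counts for a fold change (edgeR adjusted p = 0.93). The other 22 ran from -0.54 (Il6) to 0.88 (Cxcl10).

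Proteases of the cartilage and synovium overlapped between the groups. Mmp3 (stromelysin 1), which degrades proteoglycans, was at 2.60, 2.67, 3.10 and 2.07 CPM at 0D and at 2.15, 1.75, 3.23 and 3.57 CPM at 1W. In the injured joints of the same group it ranged from 16.6 to 23.1 CPM, well above all contralateral libraries. Mmp13, the collagenase of hypertrophic cartilage and bone, had a mean of 432 ± 59.0 CPM at 0D and 365 ± 66.7 CPM at 1W (SD, n = 4 each), and the groups overlapped. Among 16 measured matrix metalloproteinases 0 were called, with a median of 0.05. The same held for 18 ADAMTS proteases (median -0.11) and for 4 TIMPs, their inhibitors (median -0.13).

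No cartilage gene passed the test. Acan was at 207, 233, 216 and 284 CPM at 0D and at 171, 188, 141 and 210 CPM at 1W, and the groups overlapped through a single 1W library (log2 fold change -0.40, SE 0.22, edgeR adjusted p = 0.93). Col2a1 was at 1489, 1939, 1260 and 2426 CPM at 0D and at 1272, 1386, 1003 and 1851 CPM at 1W, with overlapping groups and a 95% interval of the log2 fold change from -0.97 to 0.24. Sox9, the transcription factor of chondrocytes, had a mean of 11.2 ± 2.39 CPM at 0D and 12.5 ± 1.44 CPM at 1W. Of 15 measured cartilage markers 0 were called, the values ran from -0.57 (Col9a1) to 0.16 (Sox9), and the median was -0.29. A further cartilage gene, Lect1 (chondromodulin), is listed under this older symbol and was not counted among the 15. Its log2 fold change was -0.63 (SE 0.29, edgeR adjusted p = 0.90), below that of Col9a1, and it was called with the replicate block. The interval lay within 1.5-fold for 1 of the 15, so that changes of moderate size remain possible for these genes. With the replicate block, Acan (edgeR adjusted p = 2.48e-05) and Col2a1 (edgeR adjusted p = 0.0010) passed the p threshold, but their changes of -0.40 and -0.36 were smaller than 1.5-fold and they were not called. The same held for Mmp13 (-0.25) and Fos (0.51).

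The fibrous matrix was measured more tightly. Col1a1, the main collagen of bone, tendon and ligament, was at 5979, 6966, 5226 and 6935 CPM at 0D and at 5285, 4712, 5015 and 8001 CPM at 1W. Replicate 4 of 1W was the highest of all 8 libraries and the other 1W libraries were among the lower ones, and the log2 fold change was -0.12 (SE 0.18, edgeR adjusted p = 1.00). Postn (periostin), which marks repairing connective tissue, was at 247, 220, 216 and 242 CPM at 0D and at 203, 163, 244 and 324 CPM at 1W. Of 15 fibrous collagens 0 were called, the median was -0.06, and for 13 of the 15 the interval lay within 1.5-fold. Small leucine-rich proteoglycans, which bind to collagen fibrils, had a median of -0.02 over 12 measured genes, and collagen-processing enzymes one of -0.11 over 19, again with 0 called.

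Genes of the synovial lining and of bone did not pass the test either. Prg4 was at 1318, 975, 1234 and 961 CPM at 0D and at 1313, 1286, 1230 and 1268 CPM at 1W, with the 1W libraries inside the range of 0D (log2 fold change 0.18, SE 0.23, edgeR adjusted p = 1.00). Of 8 synovial lining markers 0 were called (median 0.17), and of 13 osteoblast and osteocyte markers 0 (median -0.26). Osteoclast markers had a median of -0.30 over 9 genes with 0 called. Ctsk (cathepsin K), the collagen-degrading protease of osteoclasts, had a log2 fold change of -0.34 at an unadjusted p of 0.024.

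Marker sums of the other tissues overlapped between the groups. Fast muscle markers summed to between 96860 and 119100 CPM at 0D and to between 83530 and 122700 CPM at 1W. Marrow neutrophil markers summed to 17550 to 20910 CPM and 19120 to 20910 CPM, macrophage markers to 478 to 541 CPM and 482 to 552 CPM, and endothelial markers to 468 to 499 CPM and 464 to 483 CPM. Mast cell markers, with Tpsab1 (a tryptase) at 0.233 to 1.92 CPM in the 8 libraries, summed to 111 to 119 CPM at 0D and 113 to 122 CPM at 1W. In such bulk samples, fewer cells of a type and less RNA per cell cannot be told apart.

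**Figure D2:**
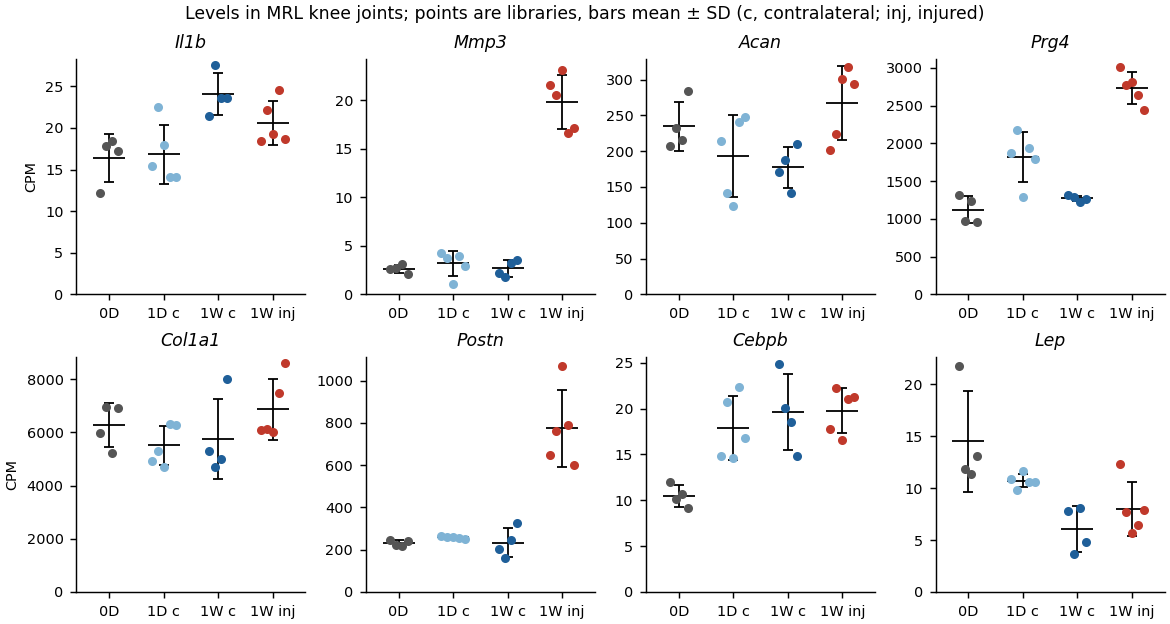
CPM of 8 genes in MRL knee joints at 0D, in contralateral joints at 1D and 1W (c) and in injured joints at 1W (inj), with each point a library and bars giving mean ± SD. Mmp3, Prg4 and Postn were higher in every injured joint than in every contralateral joint and at 0D, Prg4 was also at 1292 to 2182 CPM in contralateral joints at 1D, and Cebpb lay at 14.9 to 24.9 CPM in the contralateral joints at 1W and at 9.14 to 12.0 CPM at 0D.

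Immediate early genes respond rapidly to handling, stretch or growth factors. Fos was at 15.3, 13.3, 14.3 and 14.8 CPM at 0D and at 23.4, 19.3, 23.5 and 15.5 CPM at 1W, with no overlap between the groups (log2 fold change 0.51, SE 0.59, edgeR adjusted p = 1.00). Its 95% interval ran from -0.70 to 1.71. The SE and the interval use the spread estimated over the 40 libraries of MRL, BL6 and STR. In the fit of the MRL libraries alone the edgeR adjusted p was 0.306. With the replicate block added the SE was 0.106 and the edgeR adjusted p 0.0044, at a change under 1.5-fold. Egr1, another immediate early gene, was at 26.7 to 28.9 CPM at 0D and at 22.4 to 45.8 CPM at 1W, and the groups overlapped. Over 20 measured immediate early genes 0 were called, and the median was 0.20. Their sum was 557.8 to 589.5 CPM at 0D and 626.3 to 714.6 CPM at 1W, without overlap, and of the sums of all 52 lists it alone did not overlap between the groups. Jun (0.31), Jund (0.53) and Fosl2 (0.20) had unadjusted p-values of 0.028, 0.040 and 0.022.

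No stress hormone target or chaperone gene passed the test. Fkbp5, a target of the glucocorticoid receptor, was at 49.1 to 59.4 CPM at 0D and at 42.3 to 49.8 CPM at 1W, with a 95% interval of the log2 fold change from -0.36 to 0.03. Of 17 glucocorticoid targets 0 were called (median 0.02, range -1.0 to 0.58, 7 intervals within 1.5-fold), and Cebpd, a transcription factor of this list, had 0.53 at an unadjusted p of 0.0037. The unfolded protein response, whose genes assist protein folding in the endoplasmic reticulum, had a median of -0.08 over 16 genes with a range from -0.78 to 0.65, and heat shock chaperones one of 0.00 over 14.

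Immune gene lists held no calls in the fit of the 40 libraries. Interferon-stimulated genes had a median of 0.21 over 33 genes with a range from -0.16 to 0.74, and for 8 of these the interval lay within 1.5-fold. Complement had a median of 0.05 over 19 genes, of which C1qc, a subunit of the first component made by macrophages, had 0.43 at an unadjusted p of 0.0044. The 26 cell cycle genes ran from -0.20 to 0.17, and all 26 intervals lay within 1.5-fold. B4galnt2, a glycosyltransferase, had 20.2 ± 2.01 CPM at 0D and 17.3 ± 2.29 CPM at 1W. Over all 52 lists, with 820 distinct genes, 0 members were called in the fit of the 40 libraries and 31 had an unadjusted p below 0.05, beside 5.51% of all genes. With the replicate block 7 members were called (0.203% of all genes were), namely Lep, Dbp, Htra4, Oas3, Epyc, Pnpla3 and Rpl13.

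**Figure D3:**
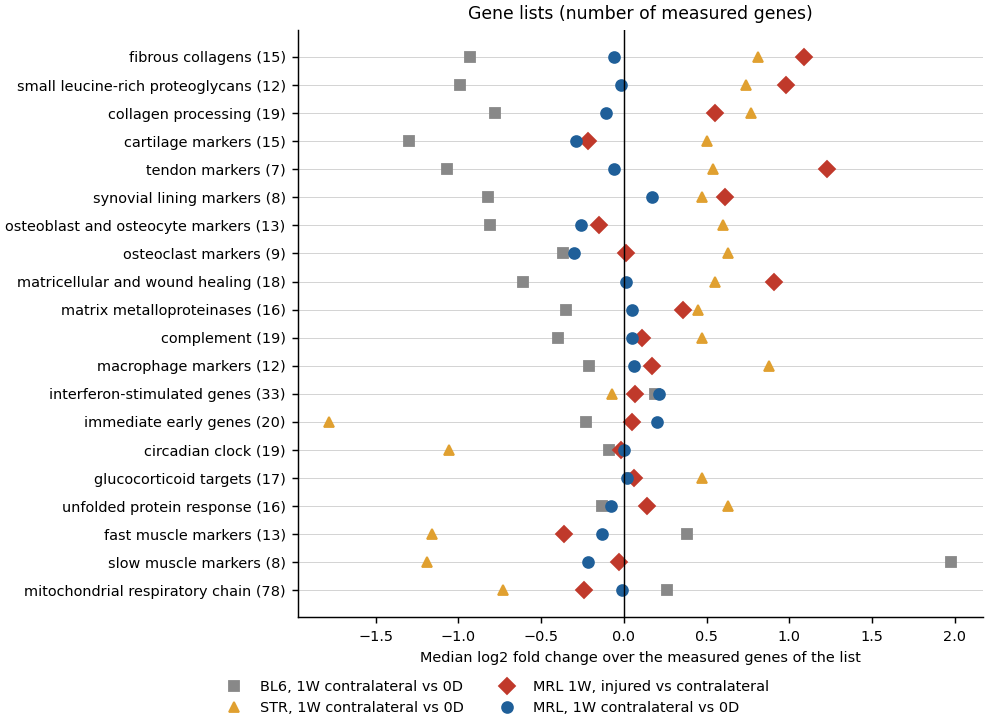
Median log2 fold change of the measured genes of 20 lists in 4 comparisons, with the number of genes in parentheses. The blue circles of MRL 1W contralateral joints against 0D lie between -0.30 and 0.21, while the matrix lists reach -1.30 in BL6, 0.81 in STR and 1.23 in the injured joints of MRL.

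The genes with the smallest p-values named in the next paragraphs were chosen after their values had been seen. A change over 1.5-fold and a mean of at least 1 CPM in the higher group were met by 251 genes, 151 higher and 100 lower at 1W. Bcl6b, a transcriptional repressor expressed in endothelium, had the smallest p (chromosome 11, 70224127 to 70229798, GRCm38). It was at 9.88, 8.14, 9.82 and 6.21 CPM at 0D and at 11.8, 14.8, 16.4 and 13.04 CPM at 1W. The groups did not overlap, and the log2 fold change was 0.71 (SE 0.16, unadjusted p = 7.69e-05, edgeR adjusted p = 0.44). With the replicate block it was called (edgeR adjusted p = 7.3e-04).

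Cebpb, a transcription factor of the acute phase and of fat cell differentiation (chromosome 2, 167688915 to 167690432, GRCm38), was at 12.0, 10.1, 10.7 and 9.14 CPM at 0D. At 1W it was at 24.9, 20.04, 18.5 and 14.9 CPM, above all 0D libraries, with a log2 fold change of 0.89 (SE 0.26, edgeR adjusted p = 0.78). In the fit of the 8 libraries it was called (0.89, edgeR adjusted p = 0.033), and with the replicate block as well (0.91, edgeR adjusted p = 9.79e-08). Its level was 14.7 to 22.3 CPM in contralateral joints at 1D and 16.5 to 22.2 CPM in injured joints at 1W, both above the 0D libraries. The corresponding log2 fold change was -0.06 in BL6 and -1.27 in STR, where it was called.

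Lep (leptin), the hormone of white fat (chromosome 6, 29060221 to 29073876, GRCm38), was at 21.8, 11.9, 11.4 and 13.1 CPM at 0D and at 7.80, 3.61, 8.06 and 4.79 CPM at 1W. All 1W libraries lay below all 0D libraries, and the log2 fold change was -1.28 (SE 0.32, edgeR adjusted p = 0.62). Lep was called as lower in the fit of the 8 libraries (edgeR adjusted p = 0.041) and with the replicate block (edgeR adjusted p = 2.06e-08). The sum of 9 white fat markers, Lep included, was 985 to 1268 CPM at 0D and 1010 to 1063 CPM at 1W, and 0 of the 9 were called in the fit of the 40 libraries. Lep fell in the other strains too, with log2 fold changes of -1.45 in BL6 and -0.69 in STR, both called, and the interaction of MRL and BL6 was not called (0.17, SE 0.45, edgeR adjusted p = 0.89).

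Apold1, an endothelial immediate early gene, was at 4.89, 4.88, 5.68 and 3.97 CPM at 0D and at 9.84, 9.56, 10.3 and 5.50 CPM at 1W. Replicate 4 of 1W fell within the range of 0D, and the log2 fold change was 0.85 (SE 0.23, edgeR adjusted p = 0.67). Dbp, an output gene of the circadian clock, was at 13.2, 13.3, 11.4 and 8.97 CPM at 0D and at 23.4, 18.4, 15.9 and 15.6 CPM at 1W, without overlap (0.63, SE 0.26, edgeR adjusted p = 0.88). Among lower genes, Serpina1b, an antiprotease, was at 2.76 to 5.93 CPM at 0D and at 1.73 to 2.45 CPM at 1W (-1.0, edgeR adjusted p = 0.62). Col23a1, a transmembrane collagen, had a log2 fold change of -0.66 (edgeR adjusted p = 0.78). Each of these changes had an edgeR adjusted p above 0.05 in the fit of the 40 libraries, and those of Apold1, Dbp and Serpina1b were called only with the replicate block.

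The 35 genes called with the replicate block included genes whose levels followed the replicate number in both groups. Glrx5, a mitochondrial glutaredoxin of iron-sulfur cluster assembly, was at 4.09, 10.3, 1.89 and 3.97 CPM in replicates 1 to 4 of 0D and at 17.1, 29.8, 5.04 and 19.6 CPM in those of 1W. Replicate 2 was the highest and replicate 3 the lowest in both groups, and within each number 1W was higher (log2 fold change 1.83, SE 0.14, edgeR adjusted p = 3.32e-14, against 1.75, SE 0.87, adjusted p = 0.90 without the block). Rpl13, a ribosomal protein, was likewise highest in replicate 2 of both groups, with 36.5, 104, 38.1 and 36.6 CPM at 0D and 66.6, 139, 41.4 and 76.1 CPM at 1W (0.62 with the block). Its near-identical copies may share reads with it. Of the immunoglobulin genes among the 35, Ighg1 rose (0.69) and Ighv14-4 fell (-1.38) with the block. Immunoglobulin genes, and the histone genes also called, have close relatives within their families, so their counts may be uncertain, which was not tested.

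Of the 9 genes lower with the block, Lect1, a cartilage glycoprotein that inhibits vessel growth, was at 76.2, 90.5, 70.6 and 130 CPM at 0D and at 57.1, 61.4, 50.8 and 66.2 CPM at 1W (-0.61, edgeR adjusted p = 2.71e-08 with the block). The highest 1W library lay below the lowest of 0D. Epyc (epiphycan), of the proteoglycan list, fell by 0.72 on the log2 scale (edgeR adjusted p = 0.014 with the block). None of the 15 listed cartilage markers was called. Htra4, a serine protease of the synovial lining list, and Oas3, an interferon-stimulated gene, were higher, with log2 fold changes of 0.64 and 0.68. The blocked fit had 3 residual degrees of freedom beside a prior of 51.1, so its p-values rest largely on the assumption that genes of like abundance share 1 spread.

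A small number of genes differed between MRL contralateral joints at 1D and the joints at 0D or 1W. Between 0D and 1D, 15 genes were called in MRL (0.0867%), 8 higher (0.0462%) and 7 lower (0.0404%). Between 1D and 1W there were 9 (0.052%), 4 higher (0.0231%) and 5 lower (0.0289%). The first count fell to 5 without replicate 3 or replicate 4 of 0D, to 8 without replicate 2 of 0D, and to 6 and 7 without replicates 1 and 4 of 1D. Its split was 17 higher and 5 lower with RUVg, and 32 and 13 with the fast muscle covariate. Both comparisons share the 1D libraries. Genes of the circadian clock were among them. Nr1d1 (Rev-erb alpha), a repressor of the clock, was at 126, 114, 119 and 96.7 CPM at 0D, at 63.1, 57.8, 54.9, 50.04 and 49.5 CPM at 1D, and at 134, 114, 102 and 112 CPM at 1W. All 1D libraries lay below all others, while 0D and 1W overlapped. Its log2 fold change was -1.05 from 0D to 1D (SE 0.16, edgeR adjusted p = 0.0012), 1.08 from 1D to 1W (SE 0.16, edgeR adjusted p = 5.92e-04) and 0.02 from 0D to 1W.

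Of the other clock genes, Per2 alone was called in both steps. Arntl (Bmal1), the activator of the clock, was at 15.5 to 17.6 CPM at 0D, at 8.49 to 11.5 CPM at 1D and at 13.9 to 15.8 CPM at 1W, with a log2 fold change of -0.71 from 0D to 1D (edgeR adjusted p = 0.024). Per2, a repressor of the clock, was at 14.5 to 19.5 CPM at 0D, at 24.96 to 31.06 CPM at 1D and at 15.8 to 17.4 CPM at 1W (0.70 and -0.77). Per3 rose by 0.67 from 0D to 1D (edgeR adjusted p = 0.029). From 1D to 1W neither Arntl (0.58, edgeR adjusted p = 0.12) nor Per3 (-0.49, edgeR adjusted p = 0.21) passed the test. Per1, which also responds to glucocorticoids, was at 22.4 to 27.8 CPM at 0D, at 41.9 to 57.7 CPM at 1D and at 23.8 to 39.7 CPM at 1W, and its log2 fold change from 0D to 1D of 0.90 did not pass the test (edgeR adjusted p = 0.13). Of 19 clock genes, 2 rose and 2 fell from 0D to 1D, and 0 were called from 0D to 1W. The hour of collection is not given in the sources used here, and its part in these values was not tested.

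Beyond the clock, Fmo2, a monooxygenase, was at 10.0 to 14.7 CPM at 0D, at 22.7 to 26.9 CPM at 1D and at 9.99 to 16.2 CPM at 1W, and both steps were called (0.94 and -0.84). Nmrk2, a kinase of NAD synthesis in muscle, was at 61.2 to 102 CPM at 0D, at 20.4 to 39.7 CPM at 1D and at 69.4 to 144 CPM at 1W (-1.49 and 1.85, both called). Banp and Cys1 rose at 1D and fell by 1W, with all 4 steps called. Lipc, Loxl4 and Fam101a fell from 0D to 1D (-0.76, -0.92 and -1.66). They did not pass the test between 1D and 1W, where their log2 fold changes were 0.27, 0.53 and 0.93, and from 0D to 1W they had -0.49, -0.39 and -0.73.

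**Figure D4:**
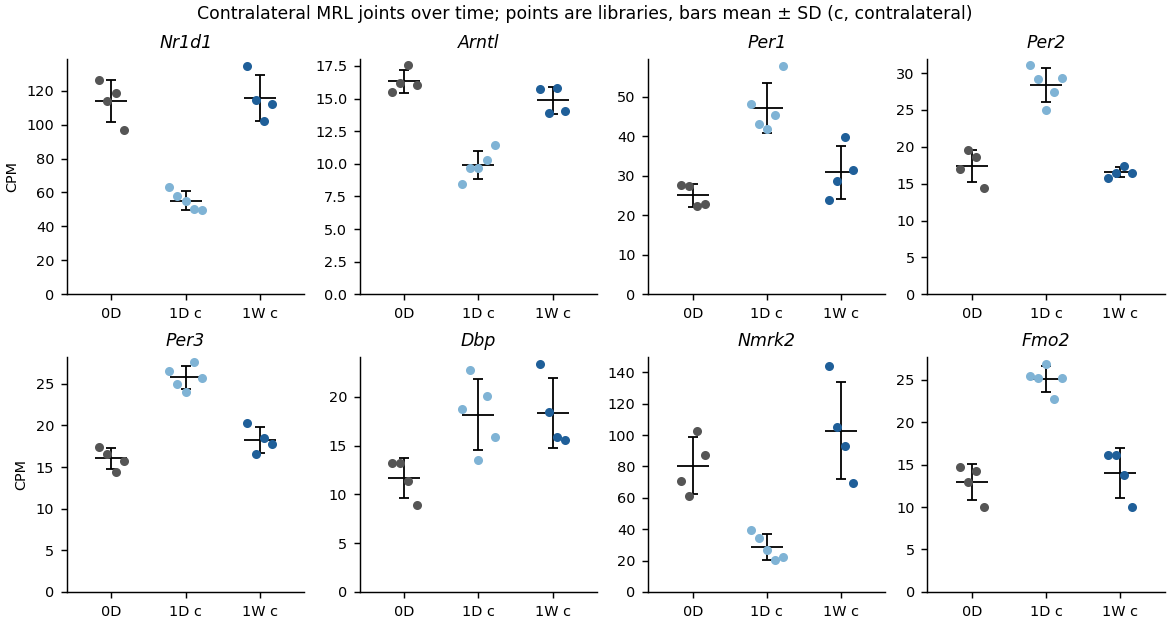
CPM of 8 genes in MRL joints at 0D and in contralateral joints at 1D and 1W (c), with each point a library and bars giving mean ± SD. Nr1d1, Arntl and Nmrk2 were lowest and Per2, Per3 and Fmo2 highest at 1D, and the 1W libraries overlapped those of 0D, except for Dbp with 15.6 to 23.4 CPM at 1W beside 8.97 to 13.3 CPM at 0D.

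The injured joints of the MRL mice at 1W differed widely from the contralateral ones. Of 17310 genes, 508 were higher (2.93%) and 33 lower (0.191%) in injured joints, 3.13% in all. The labels do not say whether a number marks both knees of the same mouse, and this test took the libraries as unpaired. Same-numbered libraries of both sides deviated together in all 4 pairs, although 2 of the 4 matched another number better, and with the replicate block 584 were higher and 99 lower. The count of lower genes rested on single libraries: it was 9 and 11 without replicates 2 and 1 of the contralateral joints, 10, 19 and 22 without replicates 4, 2 and 5 of the injured joints, and 50 without replicate 3 of the injured joints. Col14a1, a collagen that binds to fibrils, was at 20.3 to 27.3 CPM in the 4 contralateral and at 153 to 186 CPM in the 5 injured joints (log2 fold change 2.81, edgeR adjusted p = 2.26e-12). Col3a1, the collagen of repair tissue, was at 703 to 1130 CPM and 4883 to 6039 CPM (2.61, edgeR adjusted p = 9.81e-09). Of the 15 fibrous collagens 12 were higher in injured joints, whereas 0 of them were called between contralateral and 0D joints. These 2 comparisons share the contralateral libraries. Mmp3 (2.90), Postn (1.76) and Prg4 (1.13) were called as higher in injured joints, and Hk2, an enzyme of glycolysis, as lower (-0.60). Fast muscle markers summed to 59960 to 99890 CPM in injured joints and to 83530 to 122700 CPM in contralateral ones. With this sum as a covariate 503 genes were called, 487 higher and 16 lower, of which 465 were also called without it.

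In contralateral joints of BL6 mice 12 of the 15 fibrous collagens were called as lower than at 0D, beside 4.64% of all genes. In the interaction of strain and time, 273 genes were called between MRL and BL6 (1.58%), 229 with the more positive change in MRL (1.32%) and 44 with the more negative one (0.254%). This split was 388 and 31 with housekeeping scaling and 506 and 263 with the replicate block. Dcn (decorin), a proteoglycan of collagen fibrils, was at 815 to 965 CPM at 0D and at 792 to 960 CPM at 1W in MRL, and at 1612 to 2216 CPM and 858 to 1045 CPM in BL6 (interaction 0.99, edgeR adjusted p = 0.0026). Bgn (biglycan) was at 558 to 633 CPM and 640 to 680 CPM in MRL, and at 1628 to 2262 CPM and 806 to 1100 CPM in BL6 (1.12, edgeR adjusted p = 0.0029). At 0D the MRL libraries were below all BL6 libraries for both genes, and at 1W the MRL and BL6 ranges of Dcn overlapped.

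Of the 15 fibrous collagens 10 had a more positive change in MRL than in BL6, of 12 small leucine-rich proteoglycans 6, of 19 collagen-processing genes 8 and of 15 cartilage markers 3, among them Sox9 (1.33). Col1a1 had an interaction of 0.98 (edgeR adjusted p = 0.031) and Prg4 one of 1.21 (edgeR adjusted p = 0.032). Gas1, a membrane protein that arrests growth, had 1.51 (edgeR adjusted p = 0.0022), with 19.1 to 28.4 CPM at 0D and 25.6 to 34.0 CPM at 1W in MRL, and 40.5 to 48.2 CPM and 14.6 to 26.1 CPM in BL6. Markers of slow muscle moved the other way, with 3 of 8 called as more negative in MRL. Myh7, the slow myosin heavy chain, was at 25.8 to 106 CPM at 0D and 9.05 to 62.9 CPM at 1W in MRL, and at 20.3 to 40.4 CPM and 103 to 306 CPM in BL6 (-3.34, edgeR adjusted p = 0.021).

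These strain differences rested on single libraries in part. Without replicate 4 of BL6 at 0D, 81 genes were called in the interaction, and without replicate 4 of MRL at 1W 100 genes. Without replicates 1 or 2 of BL6 at 1W there were 131 and 147, and without replicates 2, 3 or 4 of MRL at 0D 172, 160 and 146. Without replicate 4 of BL6 at 0D, and likewise without replicate 4 of MRL at 1W, 0 of the 15 fibrous collagens, 0 of the 19 collagen-processing genes, 4 of the 12 small leucine-rich proteoglycans, 1 of the 15 cartilage markers and 0 of the 8 slow muscle markers were called. With the replicate block the counts were 12 fibrous collagens, 12 collagen-processing genes, 11 proteoglycans, 10 cartilage markers and 8 slow muscle markers. The calls over all genes rose as well, to 769 of 17305. The fast muscle sum was 45370 to 72980 CPM at 0D and 57290 to 99470 CPM at 1W in BL6. With this sum as a covariate, 10 fibrous collagens and 0 slow muscle markers were called.

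The genes called in BL6 were followed in MRL. They were chosen for their change in BL6, which by itself makes the median there the larger one. The 804 genes called as lower in BL6 had a median log2 fold change of -0.85 there and of -0.09 in MRL (quartiles -0.22 and 0.04). The 181 genes called as higher in BL6 had 0.81 there and -0.03 in MRL. In MRL the interval lay within 1.5-fold for 48.2% of the lower and 47.2% of the higher genes, so for the others a change of that size remains possible. For 197 of the 804 and 29 of the 181 the interaction itself was called, so most of the differences between MRL and BL6 did not pass the test gene by gene.

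Against STR the interaction was called for 2138 genes (12.4%), 1149 more positive (6.64%) and 989 more negative (5.71%) in MRL. Of 20 immediate early genes 16 were more positive in MRL, and of 19 collagen-processing genes 17 were more negative. Fos was at 155 to 517 CPM at 0D and at 16.2 to 43.0 CPM at 1W in STR, while the MRL libraries ranged from 13.3 to 23.5 CPM (interaction 4.19, edgeR adjusted p = 2.01e-04). Egr1 was at 374 to 673 CPM and 27.1 to 36.1 CPM in STR (4.26, edgeR adjusted p = 1.17e-06). At 1W the STR libraries were thus near the level of MRL, and it was the STR joints at 0D that stood apart. Jun, Nr4a1 and Apold1 had the same direction, with interactions of 2.01, 3.15 and 2.72.

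Clock and glucocorticoid genes differed from STR in both directions. Of 19 clock genes 12 were more positive and 3 more negative in MRL, among them Dbp (3.01) and Arntl (-1.30). Dbp was at 13.4 to 19.6 CPM at 0D and 1.76 to 4.11 CPM at 1W in STR. Of 17 glucocorticoid targets 5 were more positive and 6 more negative in MRL. Fkbp5 was at 45.5 to 50.9 CPM at 0D and at 111 to 144 CPM at 1W in STR, and the interaction was -1.64 (edgeR adjusted p = 1.62e-10). Of 16 genes of the unfolded protein response 10 were more negative in MRL, of 12 macrophage markers 9 and of the 15 fibrous collagens 10. Prg4 had an interaction of -1.14 and Mmp3 one of -2.02, with Mmp3 at 7.82 to 27.8 CPM and 25.7 to 91.8 CPM in STR. Il1b had one of 1.54.

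The muscle content of the STR libraries moved with these results. Fast muscle markers summed to 102300 to 119600 CPM at 0D and to 37480 to 70700 CPM at 1W in STR, with no overlap, and 12 of the 13 markers and 50 of 78 genes of the mitochondrial respiratory chain were more positive in MRL. With the fast muscle sum as a covariate 1029 genes were called, 327 more positive and 702 more negative, of which 824 were also called without it. They included 16 immediate early genes, 10 clock genes (6 more positive and 4 more negative) and 8 fibrous collagens. With the covariate the calls also held 5 genes of the unfolded protein response, 4 macrophage markers, 1 fast muscle marker and 13 genes of the respiratory chain. The covariate is the sum of the 13 fast muscle markers themselves, and in STR it did not overlap between 0D and 1W. Calls lost with it therefore cannot tell a change of muscle content from other changes between these times in STR. With scaling by 25 housekeeping genes the split was 1619 and 500, with 6 fibrous collagens and 6 macrophage markers called.

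**Figure D5:**
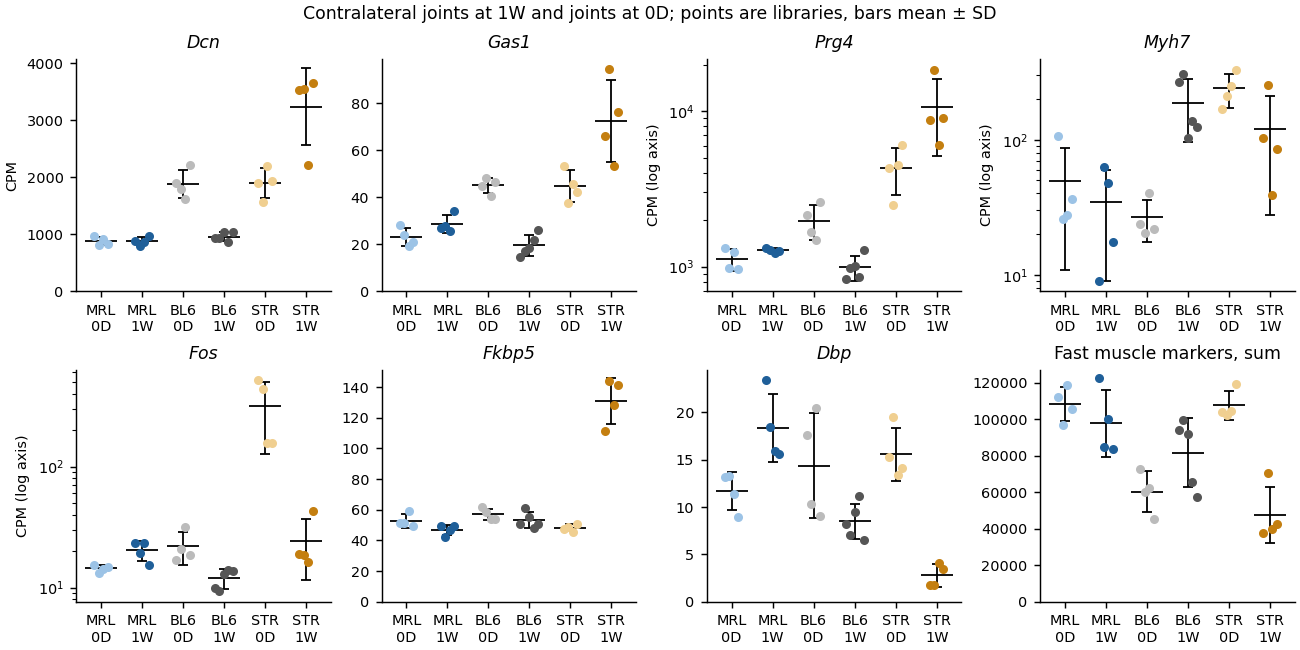
CPM of 7 genes and summed CPM of the fast muscle markers in joints at 0D and contralateral joints at 1W of MRL, BL6 and STR mice, with points for libraries and bars for mean ± SD; Prg4, Myh7 and Fos are on a log axis. The 2 MRL groups lie side by side for Dcn (792 to 965 CPM) and Fkbp5 (42.3 to 59.4 CPM), whereas Dcn fell in BL6 and Fkbp5 rose in STR.

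The genes called in STR, chosen likewise for their change there, were followed in MRL as well. The 1292 genes lower in STR had a median log2 fold change of -1.01 there and of 0.00 in MRL (quartiles -0.09 and 0.09), and the 1091 higher genes 0.81 there and -0.06 in MRL. For 1018 of the 1292 (78.8%) and 705 of the 1091 (64.6%) the interaction was called. In MRL the interval lay within 1.5-fold for 69.1% of the genes that fell and 54.4% of those that rose in STR. Among genes called in both interactions, 7 were more positive and 5 more negative in MRL than in either strain, while 121 were more positive than in BL6 and more negative than in STR, and 14 the reverse.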

How the data were processed

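Whole knee joints, cut with traces of soft tissue, were sequenced as poly(A)-enriched RNA. The authors aligned the reads to mm10 with TopHat2 (version 2.0.11, per the submitters' processing notes), summarised them on RefSeq genes with featureCounts and deposited whole-number counts per gene. Of 17313 rows, 3 repeats were dropped. The study's filter (at least 2 counts in 5 libraries) removed 0 genes. The names of 24 genes had become dates. All libraries used belong to sequencing batch 1 of the labels.

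A single fit of the counts by edgeR 4.0.16 under R 4.3.3 (TMM scaling, quasi-likelihood test, Benjamini-Hochberg adjustment over all genes) held 40 uninjured libraries with a mean per strain and time (9 groups), which also gave the interactions. Injured and contralateral joints were compared in a fit of 28 libraries. Genes were called at an adjusted p below 0.05 and a fold above 1.5, the study's thresholds. The 95% intervals used the prior and residual degrees of freedom (median 38.8). For the spread between libraries, 2 prior counts were added before taking log2 CPM. The scripts were tested on simulated data. Alternatives were RLE factors, housekeeping scaling, RUVg, DESeq2 (version 1.42.0), other filters and library sets, a replicate block and leaving out each library. The fast muscle covariate was chosen after seeing the data.

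Replicate numbers of 0D and 1W libraries were checked for pairing: the deviations from the group means of same-numbered libraries correlated at 0.332, 0.297, 0.142 and 0.139 over the 10025 genes of at least 10 CPM, and 3 of 4 matched their own number best. Injured and contralateral 1W libraries correlated by number at 0.311, 0.168, 0.228 and 0.351. The labels give no reason for the former, and for the latter they do not say whether a number marks both knees of the same mouse. The main fits had no block, so the test of injured against contralateral joints took the libraries as unpaired. No pair of libraries was identical. Total counts, 6182016 to 20986027 over all libraries, limit the precision of weakly expressed genes.

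Named genes were the called ones and 21 set by name (Il6, Il1b, Ccl2, Mmp3, Mmp13, Col2a1, Acan, Prg4, Sox9, Col1a1, Postn, Tpsab1, B4galnt2, Fos, Egr1, Dbp, Per1, Arntl, Fkbp5, Xist and Ddx3y); others were chosen after their values were seen. The members and lists were chosen with earlier results of these data known. Coordinates come from RefSeq (GRCm38.p6).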

Additional observations from a re-analysis of the deposited data

Results flagged for a closer look

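Of 186 sets of values screened, 13 held a library far from the others of its group, where chance gives about 1 in 20. In replicate 1 of 0D, Lep was at 21.8 CPM beside 11.4 to 13.1 CPM in the other libraries, Tpsab1 at 1.60 CPM beside 0.814 to 0.862 CPM, and Col23a1 at 5.79 CPM beside 4.48 to 4.66 CPM. The same library had summed levels of 7210 CPM for heat shock chaperones (others 7580 to 7600 CPM), 254 CPM for ADAMTS proteases (238 to 239 CPM) and 3820 CPM for fatty acid use and thermogenesis (3510 to 3520 CPM). In replicate 3 of 0D, Gm11346 was at 1.21 CPM beside 1.5 to 1.55 CPM.

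Replicate 4 of the 1W contralateral joints stood apart in matrix and bone genes. Fibrous collagens summed to 18600 CPM beside 11500 to 12700 CPM, osteoblast and osteocyte markers to 10700 CPM beside 6740 to 7300 CPM, matricellular and wound healing genes to 5870 CPM beside 4830 to 4950 CPM and TIMPs to 618 CPM beside 579 to 583 CPM. Apold1 was at 5.50 CPM there beside 9.56 to 10.3 CPM. In replicate 1 the mitochondrial respiratory chain summed to 18900 CPM beside 15800 to 16200 CPM.

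The change from 0D to 1W differed from that in BL6 in the interaction test for 273 genes. Those named here were Prg4 (1.21), Sox9 (1.33), Col1a1 (0.98), Dbp (1.39) and Bcl6b (0.95), with the more positive change in MRL, and Gm15787 (-1.19), Atp8a2 (-1.36) and Gm11346 (-2.05), with the more negative one.

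It differed from that in STR for 2138 genes. The interaction was positive for Il1b (1.54), Fos (4.19), Egr1 (4.26), Dbp (3.01), Per1 (1.03), Bcl6b (1.66), Trim14 (1.16), Apold1 (2.72), Cebpb (2.16), 2310039H08Rik (1.14) and Mrpl34 (1.02). It was negative for Mmp3 (-2.02), Acan (-1.17), Prg4 (-1.14), Col1a1 (-0.72), Arntl (-1.30), Fkbp5 (-1.64), Serpina1b (-1.37), Cfap45 (-1.96), Map10 (-0.94) and Gm11346 (-1.54).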

How the results depend on the processing

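The count of 0 genes between 1W and 0D in MRL held under RLE factors, housekeeping scaling, RUVg, DESeq2, the edgeR filter on low counts, all 70 batch 1 libraries, the fast muscle covariate and without each of the 8 libraries (0 in each). It was 2 with the compared groups only and 35 with the replicate block added to that fit. The block also gave 77 genes for 1D against 0D, 68 for 1W against 1D and 769 for the interaction with BL6. In these comparisons 1 number of the 1D libraries, and 1 of the BL6 libraries, had a negative correlation, so that the numbers were not taken to pair them. It did not change the other totals by more than 1.5 times, but in STR 717 genes were higher with it and in injured joints 99 were lower. With the compared groups only, 56 genes were called for 1D against 0D and 38 for 1W against 1D. DESeq2 gave 25 and 20 in these comparisons, and the fast muscle covariate 45 and 30. The covariate gave 988 genes in STR, of which 748 were also called without it, and 1029 in the interaction with STR, 824 of them shared, and 419 and 422 genes were called in the interaction with BL6 under housekeeping scaling and RUVg. Leaving out each library gave 5 to 13 genes for 1D against 0D, 6 to 11 for 1W against 1D, 669 to 1119 in BL6, 2095 to 2539 in STR, 81 to 385 and 1790 to 2322 in the interactions with BL6 and STR, and 437 to 550 between injured and contralateral joints. The lowest value for BL6 was reached without replicate 4 of 0D. Apart from changes that follow from fewer libraries or another set of libraries, the cause was not tested. Of 41 named genes followed, 7 uncalled ones took the other sign under at least 1 alternative, and 11 were called in the fit of the compared groups only or with the block. Depth limits the comparison for genes below 1 CPM.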
